A study of Mus musculus with 8 samples.

Results

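The 10 genes described here encode the 5 NF-κB subunits (Nfkb1, Nfkb2, Rel, Rela and Relb) and 5 inhibitor or feedback proteins of the same pathway (Nfkbia, Nfkbib, Nfkbie, Bcl3 and Tnfaip3). They were chosen by symbol from a list, with no measured value in the rule but with earlier results of these data known, and each symbol matched 1 row, 10 rows of the 22013 in the table. Their levels came from RNA-seq of RAW264.7 cells, an established mouse macrophage-like line, in 8 libraries. In 4 libraries the cells had received recombinant FSTL1 (rFSTL1), the secreted glycoprotein follistatin-like 1, at 100 ng/mL for 24 h, and in the other 4 libraries they had received PBS. No genotype change or second agent is named for either group, all libraries come from 1 cell line, and neither the labels nor the methods say whether the 4 libraries of a group came from separate cultures. The comparison asks how rFSTL1 altered the transcripts of the NF-κB machinery in macrophage-like cells.

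NF-κB proteins work as dimers. In a resting cell, IκB proteins hold most dimers in the cytoplasm, and inflammatory receptors activate the IκB kinase (IKK) complex, which marks IκB for degradation and frees the dimer to enter the nucleus. Several genes of the system are themselves NF-κB targets in macrophages, among them Nfkbia and Tnfaip3, so that their transcripts serve as a feedback on the pathway. The subunits are activated mainly by release and processing of protein, which mRNA levels do not report.

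The κB consensus, the DNA motif that NF-κB dimers bind, was searched on both strands in the 250 bases before each annotated start. The stretches below show the matched letters, because several of these genes are known to answer to the factors they encode or restrain. RefSeq promoters (GRCm38.p6) were matched by symbol for 8 of the 10 genes, in 11 windows. Nfkb1 and Relb had no entry. The consensus was found in 5 of the 8 genes, against 4.46% of the 27025 genes in the promoter table, and in 7 of the 11 windows, against 3.90% of 32851 windows. The 7 windows held it at 9 places. Each stretch of 30 bases is printed 5′ to 3′ on the strand of its gene, with the match in capitals.
Nfkbia, chr12:55492657-55492686, minus strand, 29 to 20 bases before the start: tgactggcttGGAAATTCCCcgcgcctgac
Tnfaip3, chr10:19015516-19015545, minus strand, 125 to 116 bases before a start: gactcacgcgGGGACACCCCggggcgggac
Tnfaip3, chr10:19015411-19015440, minus strand, 12 to 3 bases before the same start: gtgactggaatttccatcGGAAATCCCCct
Nfkbie, chr17:45555584-45555613, plus strand, 106 to 97 bases before the start: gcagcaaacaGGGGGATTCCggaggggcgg
Rel, chr11:23771042-23771071, minus strand, 92 to 82 bases before the start: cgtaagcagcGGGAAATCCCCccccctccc
Nfkb2, chr19:46304688-46304717, plus strand, 39 to 29 bases before a start: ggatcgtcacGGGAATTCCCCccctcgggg
Nfkb2, chr19:46304707-46304736, plus strand, 11 to 2 bases before a start: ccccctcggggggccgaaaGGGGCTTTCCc
Nfkb2, chr19:46305449-46305478, plus strand, 236 to 227 bases before a start: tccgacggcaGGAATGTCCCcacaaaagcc
Nfkb2, chr19:46305695-46305724, plus strand, 225 to 216 bases before a start: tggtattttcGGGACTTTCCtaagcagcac

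The windows of Rela, Nfkbib and Bcl3 held no match, which says only that these letters were not in those windows. A match is a description of the sequence, and binding was not measured in these libraries.

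The libraries held 15062023 to 20234477 estimated counts, and the 10 genes all passed the expression filter that left 10748 genes for the test. Levels are given as CPM, which divides each count by its library's total and then by a TMM factor, with the replicates in the order 1 to 4. All 9 macrophage markers were detected, and their summed level was 4699 to 4849 CPM under PBS and 4761 to 4928 CPM under rFSTL1. Adgre1, which encodes F4/80, was at 2.74 to 4.43 CPM only, while Csf1r was at 1210 to 1314 CPM. The markers of T cells, B cells, neutrophils, fibroblasts, endothelial and epithelial cells each summed to at most 1.28 CPM in any library. Fewer cells with a transcript and less transcript per cell cannot be told apart in bulk RNA.

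In edgeR's quasi-likelihood fit, with p-values adjusted by Benjamini-Hochberg over all genes, 0 of the 10 genes passed a threshold of 0.05, against 0.344% of all genes tested and 0.326% called higher under rFSTL1. DESeq2 gave no adjusted p for Bcl3 and Nfkbie, called 0 of the other 8 and called 2.12% of the 9289 genes with an adjusted p. The limma voom fit called 0 of the 10 and 4.22% of all genes. Every limma voom fit here used sample quality weights, and no fit without them was run. By unadjusted p under 0.05 in edgeR, 3 of the 10 were higher under rFSTL1 (Bcl3, Tnfaip3 and Nfkbib) and 0 lower, where 8.28% of all genes tested were higher. DESeq2 held 2 of the 10 higher at that threshold (Bcl3 and Tnfaip3), against 7.01% of all genes, and limma voom held 4 (Bcl3, Tnfaip3, Nfkb2 and Nfkbia), against 11.5%. In 2 of the 10, Bcl3 and Tnfaip3, every rFSTL1 library lay above every PBS library with TMM scaling, against 4.63% of all genes tested. Nfkbia did so as well with upper-quartile scaling or library totals alone, against 5.26% and 4.29%. Since the genes were chosen with earlier results known, these counts are not independent evidence. The inhibitor and feedback genes had log2 fold changes of 0.10 to 0.70 (median 0.17), all 5 positive, and the subunits had -0.08 to 0.12 (median 0.03). The median over all genes tested was 0.01.

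**Figure D1:**
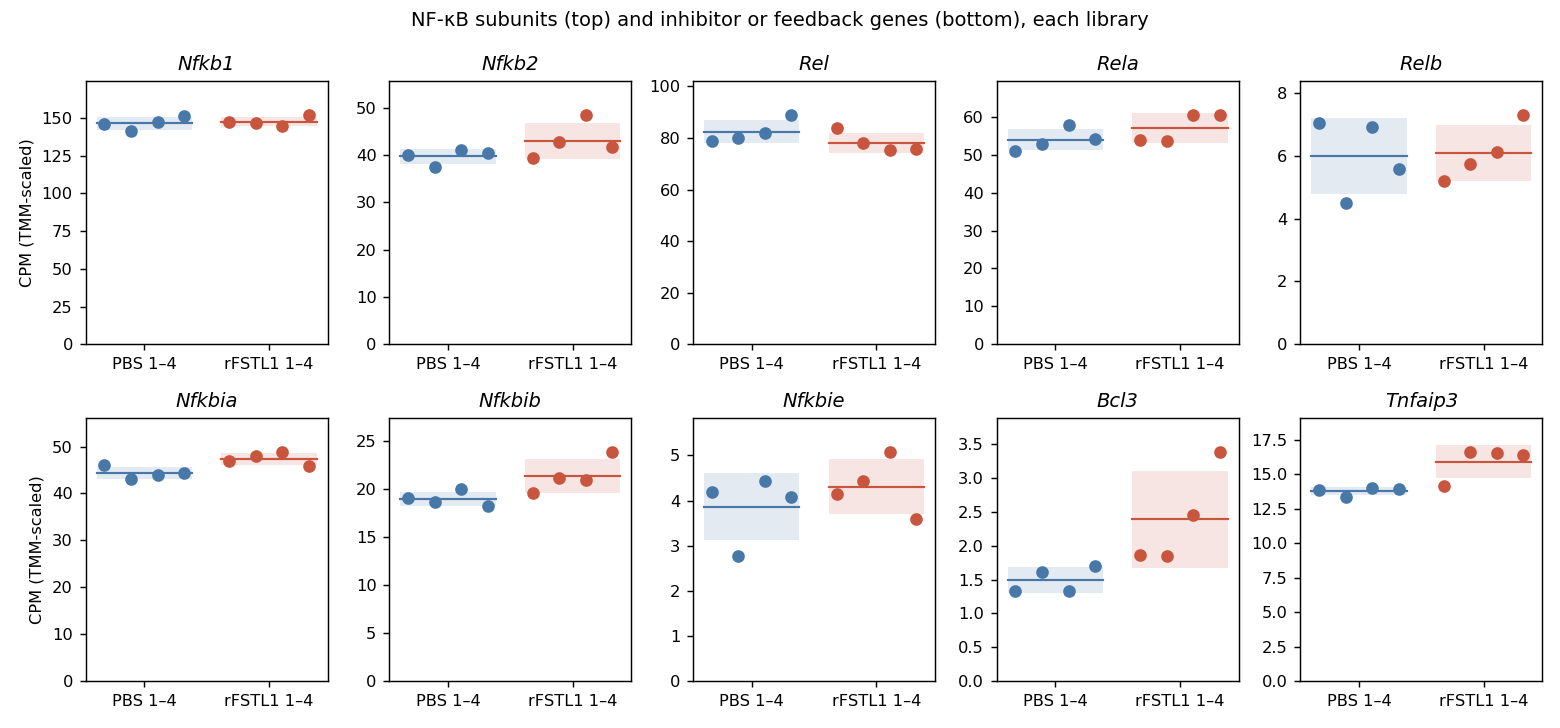
TMM-scaled CPM of each gene in every library, with 1 panel per gene and each vertical axis starting at 0. Points are libraries in replicate order, lines are group means and bands are 1 SD (n = 4); only in the Bcl3 and Tnfaip3 panels do all rFSTL1 points lie above all PBS points.

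In edgeR on all 8 libraries, the 95% interval of the difference included 0 for all 5 subunits. In other fits, Nfkb2 had an unadjusted p of 0.0155 by limma voom and 0.0431 without rFSTL1 replicate 1, and Rel had 0.0477 in the latter edgeR fit. Nfkb1 (ENSMUSG00000028163) encodes p105, the precursor of p50, and was at 146, 141, 147 and 151 CPM under PBS and 148, 147, 144 and 152 CPM under rFSTL1. The groups overlapped almost fully, with means of 146 ± 4.26 and 148 ± 3.08 CPM (SD, n = 4). Its log2 fold change was 0.01 (standard error 0.04), and edgeR gave an adjusted p of 0.907 (Benjamini-Hochberg). The 95% interval of the difference ran from -5.02% to 7.09%, the narrowest of the 10 genes.

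Rela (ENSMUSG00000024927) encodes p65, the subunit that pairs with p50 in the best known dimer. It was at 51.1, 52.9, 57.8 and 54.1 CPM under PBS and 54.0, 53.5, 60.4 and 60.4 CPM under rFSTL1. rFSTL1 replicates 3 and 4 stood above the PBS range and replicates 1 and 2 were inside it. Its log2 fold change was 0.08 with a 95% interval of -0.04 to 0.21 (edgeR, Benjamini-Hochberg adjusted p = 0.521). It was 0.05 without PBS replicate 1 and likewise 0.05 without rFSTL1 replicate 3 or 4.

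Rel (ENSMUSG00000020275) encodes c-Rel, a subunit prominent in lymphoid and myeloid cells, and it was the 1 gene of the 10 with a negative log2 fold change. Its values were 78.8, 80.1, 82.0 and 88.8 CPM under PBS and 83.7, 78.0, 75.3 and 75.7 CPM under rFSTL1. Replicates 2, 3 and 4 under rFSTL1 were below the whole PBS range, and replicate 1 was inside it. The log2 fold change was -0.08 with a 95% interval of -0.19 to 0.03 (edgeR, Benjamini-Hochberg adjusted p = 0.489), which as a change of level spans -12.2% to 2.39%. It was -0.05 without PBS replicate 4 and -0.12 without rFSTL1 replicate 1. Rel relative to Rela within a library was 1.53 ± 0.0909 under PBS and 1.38 ± 0.151 under rFSTL1 (SD, n = 4, ratio of CPM), and the groups overlapped.

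Nfkb2 and Relb encode the pair of subunits of the alternative pathway, p100 (the precursor of p52) and RelB. Nfkb2 (ENSMUSG00000025225) was at 40.0, 37.4, 41.0 and 40.4 CPM under PBS and 39.3, 42.7, 48.4 and 41.6 CPM under rFSTL1. Of the rFSTL1 libraries 3 were above the PBS range, with replicate 3 highest and replicate 1 inside it. On the log2 scale the change was 0.12, with a 95% interval of -0.02 to 0.26 (edgeR, Benjamini-Hochberg adjusted p = 0.404), and it was 0.05 without rFSTL1 replicate 3. Exons of Nfkb2 overlap those of Psd (6.52% of its exonic bases) and of AC114539.1 (11.6%) on the opposite strand in GENCODE M21. Whether strand was used in counting is not given in the sources used here, and the deposited Nfkb2 counts were not whole in 6 of 8 libraries.

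Relb (ENSMUSG00000002983) was at 7.04, 4.48, 6.91 and 5.58 CPM under PBS and 5.21, 5.73, 6.12 and 7.29 CPM under rFSTL1. The groups were mixed, with 422 PBS counts and 430 rFSTL1 counts in total. The log2 fold change was 0.03 (95% interval -0.31 to 0.36, edgeR, Benjamini-Hochberg adjusted p = 0.952), and its sign turned when PBS replicate 2 (-0.09) or 4 (-0.01) or rFSTL1 replicate 4 (-0.08) was left out. The sign of Nfkb1 also turned, to -0.01 without PBS replicate 2 and to -0.0014 without rFSTL1 replicate 4.

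The 3 cytoplasmic IκB genes all had positive log2 fold changes and none was called. Nfkbia (ENSMUSG00000021025) encodes IκBα, the inhibitor that NF-κB re-induces, and its promoter stretch above holds a match close to the start. It was at 46.0, 43.0, 43.9 and 44.4 CPM under PBS and 47.0, 48.0, 48.8 and 45.8 CPM under rFSTL1. The groups overlapped by 1 library, since rFSTL1 replicate 4 lay just under PBS replicate 1. The means were 44.3 ± 1.24 and 47.4 ± 1.29 CPM (SD, n = 4), which is 0.10 on the log2 scale (standard error 0.05, edgeR, Benjamini-Hochberg adjusted p = 0.363). The 95% interval spanned a change of -0.749% to 15.4%, and the two-sided exact permutation test gave p = 0.0571. Relative to Rela, Nfkbia was 0.823 ± 0.0577 under PBS and 0.833 ± 0.0620 under rFSTL1 (SD, n = 4, ratio of CPM), with overlap.

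Nfkbib (ENSMUSG00000030595) encodes IκBβ, a slower-turning IκB. It was at 19.1, 18.6, 19.9 and 18.2 CPM under PBS and 19.5, 21.1, 20.9 and 23.8 CPM under rFSTL1. Replicate 1 under rFSTL1 was inside the PBS range and the other rFSTL1 libraries were above it. Its log2 fold change was 0.17 (standard error 0.08), with an unadjusted p of 0.0428 and a Benjamini-Hochberg adjusted p of 0.295 (edgeR). The exact permutation test gave p = 0.0571 (two-sided), and without rFSTL1 replicate 4 the log2 fold change was 0.11. The unadjusted p stayed under 0.05 in 6 of 17 alternatives and was 0.062 by DESeq2, 0.0516 by limma voom and 0.0644 with the replicate block. Its exons overlap those of Ccer2 (14.5%) and Sirt2 (1.94%) on the opposite strand.

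Nfkbie (ENSMUSG00000023947) encodes IκBε. It was at 4.19, 2.77, 4.44 and 4.07 CPM under PBS and 4.14, 4.43, 5.08 and 3.59 CPM under rFSTL1. Only rFSTL1 replicate 3 was above the PBS range. On the log2 scale the change was 0.16 with a 95% interval of -0.22 to 0.53 (edgeR, Benjamini-Hochberg adjusted p = 0.694), from 271 and 301 counts in total. The log2 fold change was 0.02 without PBS replicate 2, 0.06 without rFSTL1 replicate 3, and 0.24 without PBS replicate 3 or rFSTL1 replicate 4.

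Bcl3 (ENSMUSG00000053175) encodes an atypical, nuclear IκB that binds p50 and p52 homodimers, and it had the largest fold change of the 10 genes at the lowest level per length. Its values were 1.34, 1.61, 1.33 and 1.71 CPM under PBS and 1.87, 1.85, 2.46 and 3.39 CPM under rFSTL1. The groups did not overlap, but replicates 1 and 2 under rFSTL1 stood close to the highest PBS library and replicate 4 stood well above the rest. The means were 1.50 ± 0.191 and 2.39 ± 0.722 CPM (SD, n = 4).

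The log2 fold change of Bcl3 was 0.70 (standard error 0.24), with an unadjusted p of 0.0108 and a Benjamini-Hochberg adjusted p of 0.205 (edgeR). Its fold interval at 95% ran from 1.14 to 2.32, and the exact permutation test gave p = 0.0286 (two-sided), the smallest p that 4 against 4 libraries allow. The counts behind it were few, 22 to 29 per PBS library (104 in total, exact Poisson interval 85.0 to 126) and 28 to 66 per rFSTL1 library (171 in total, 146 to 199). These intervals cover counting error only. Without rFSTL1 replicate 4 the log2 fold change was 0.48, with an unadjusted edgeR p of 0.0769, and 16 of 17 alternatives kept an unadjusted p under 0.05. An antisense gene, Gm16175, overlaps 6.51% of the exonic bases of Bcl3.

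Tnfaip3 (ENSMUSG00000019850) encodes A20, the ubiquitin-editing enzyme that shuts down signalling to IKK, and 1 of its 2 promoter windows holds 2 matches to the κB consensus. It was at 13.9, 13.3, 14.0 and 13.9 CPM under PBS and 14.2, 16.6, 16.5 and 16.4 CPM under rFSTL1. Every rFSTL1 library was above every PBS library, replicate 1 by a narrow margin and replicates 2 to 4 by a wide one. The means were 13.8 ± 0.308 and 15.9 ± 1.19 CPM (SD, n = 4).

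For Tnfaip3 the log2 fold change was 0.21 (standard error 0.08), with an unadjusted p of 0.0217 and a Benjamini-Hochberg adjusted p of 0.243 (edgeR). The 95% interval spanned a change of 2.47% to 30.7%, and the exact permutation p was 0.0286 (two-sided). The unadjusted edgeR p was 0.0517 without PBS replicate 2, 0.0539 without rFSTL1 replicate 2 and 0.0564 without rFSTL1 replicate 3. Tnfaip3 relative to Nfkb1 was 9.43% ± 0.156 under PBS and 10.8% ± 0.851 under rFSTL1 (SD, n = 4, ratio of CPM), without overlap. The nearest libraries almost met, PBS replicate 1 at 9.54% and rFSTL1 replicate 1 at 9.60%.

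**Figure D2:**
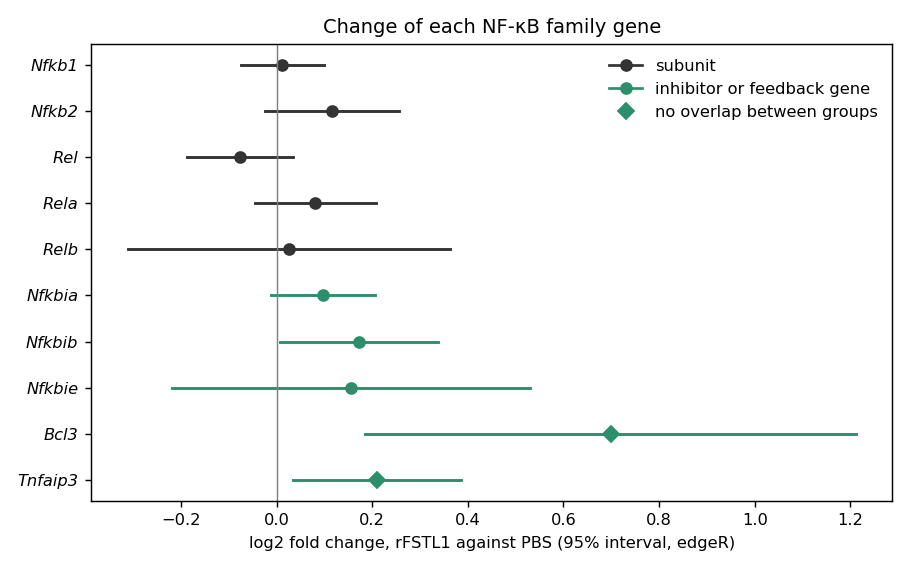
Log2 fold change of each gene under rFSTL1 against PBS, with its 95% interval from edgeR (n = 4 per group). Diamonds mark the genes whose groups do not overlap, and the intervals of Nfkbib, Bcl3 and Tnfaip3 lie above 0 before adjustment for multiple testing.

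Summed over each role, the inhibitor and feedback transcripts separated the 2 groups of libraries, and the subunit transcripts overlapped. The 5 subunits together were at 316 to 340 CPM under PBS and 326 to 337 CPM under rFSTL1, with overlap and means of 328 ± 11.1 and 332 ± 4.64 CPM (SD, n = 4). The 5 inhibitor and feedback genes together were at 84.5, 79.3, 83.6 and 82.3 CPM under PBS and 86.7, 92.0, 93.8 and 93.1 CPM under rFSTL1. The second sum therefore did not overlap between the groups, with means of 82.4 ± 2.25 and 91.4 ± 3.23 CPM (SD, n = 4). Nfkbia was its largest part, at a mean of 44.3 CPM under PBS, and Bcl3 its smallest, at 1.50 CPM. Nfkb1 was the largest part of the subunit sum, at 146 CPM.

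As a share of the subunit sum, the inhibitor and feedback sum was 24.2% to 26.2% under PBS and 26.3% to 28.2% under rFSTL1. The nearest libraries of the groups thus almost met. CPM is not divided by gene length, so these shares compare the groups and not the amounts of the proteins' transcripts. The roles were set side by side after earlier results of these data were known, and no test was made over the sums.

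**Figure D3:**
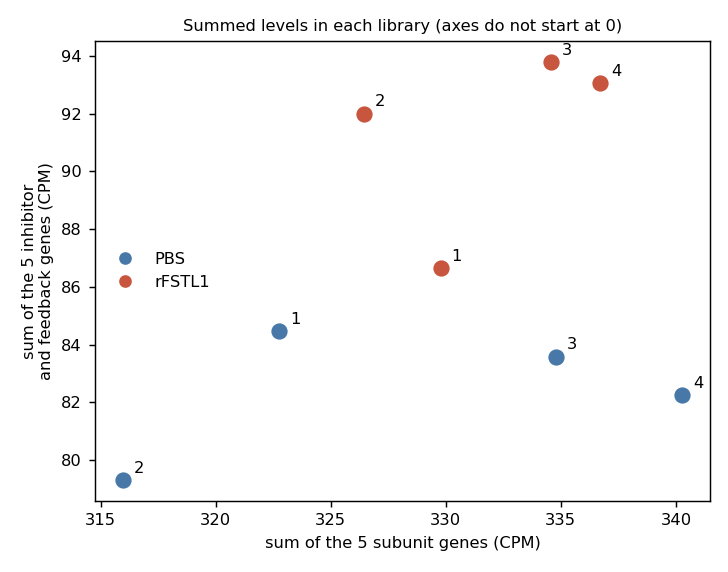
Sum of the 5 subunit genes (horizontal, CPM) against the sum of the 5 inhibitor and feedback genes (vertical, CPM), with 1 numbered point per library and axes that do not start at 0. On the vertical axis the rFSTL1 libraries lie at 86.7 to 93.8 CPM and the PBS libraries at 79.3 to 84.5 CPM, while the horizontal ranges overlap.

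The rFSTL1 libraries did not depart equally from PBS. Over all genes they also differed more among themselves than the PBS libraries did, since the chi-square between pairs, divided by its degrees of freedom, was 4.42 to 18.4 for rFSTL1 and 3.02 to 4.14 for PBS. The pair of replicates 3 and 4 was the closest (4.42) and the pair of 2 and 4 the farthest (18.4). Rela and Bcl3 had their higher rFSTL1 values in replicates 3 and 4, and the part of this split in their changes was not tested. Over all genes tested, the share above the PBS range was 21.7%, 24.3%, 29.4% and 34.3% in rFSTL1 replicates 1 to 4, and the share below it was 21.1%, 25.2%, 26.9% and 30.9%. In replicate 1, 3 of the 10 genes were above the PBS range and 7 inside it, and the median log2 difference of the inhibitor and feedback genes from the PBS mean was 0.08. In replicates 2, 3 and 4, 5, 7 and 7 genes were above the range and 1 gene, Rel, below it in each, with inhibitor medians of 0.17, 0.25 and 0.24. The subunit medians were 0.00, -0.01, 0.04 and 0.07 in replicates 1 to 4.

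Per length, with CPM divided by the longest GENCODE M21 transcript in kilobases, Nfkb1 stood highest under PBS at 35.3 ± 1.03 CPM per kb (SD, n = 4). It was followed by Nfkbia at 28.1 ± 0.788 and Rela at 19.9 ± 1.04 CPM per kb, none of which overlapped. Rel (11.0 ± 0.596) and Nfkb2 (10.3 ± 0.411) overlapped across libraries, and Nfkbib followed at 9.19 ± 0.362 CPM per kb. Tnfaip3 (2.23 ± 0.0497), Relb (1.83 ± 0.369), Nfkbie (1.29 ± 0.249) and Bcl3 (0.808 ± 0.103) formed the low end, each overlapping the next. With the merged length of all annotated exons Nfkb1 is 12061 instead of 4149 bases, and the order began with Nfkbia at 27.5, Rela at 17.6 and Nfkb1 at 12.1 CPM per kb.

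Upstream of the 10 genes, edgeR called 0 of the transcripts that carry the signal to IκB. At an unadjusted p under 0.05 edgeR held 15.8% of all genes in either direction. The counts at that threshold given here for each list can be read against it. Groups without overlap can be read against 498 genes higher and 379 genes lower under rFSTL1, of the 10748 tested. Of 25 adaptor and ubiquitin ligase genes edgeR called 0, with 3 at an unadjusted p under 0.05, and DESeq2 called 0. The limma voom fit with sample quality weights called 1, Rnf31, beside 4.22% of all genes. Without overlap between the groups, 1 of the 25 was higher and 2 were lower under rFSTL1. Rnf31, which encodes HOIP, the catalytic subunit of the linear ubiquitin chain assembly complex, was at 20.5 ± 1.57 CPM under PBS and 25.5 ± 3.37 CPM under rFSTL1 (SD, n = 4) without overlap. Its log2 fold change was 0.32 (edgeR, Benjamini-Hochberg adjusted p = 0.139). Map3k7, which encodes the IKK-activating kinase TAK1, was at 110 ± 0.560 and 103 ± 4.46 CPM (SD, n = 4), with all rFSTL1 libraries lower and a log2 fold change of -0.10 (edgeR, Benjamini-Hochberg adjusted p = 0.286). Malt1, a paracaspase of antigen and lectin receptor signalling, had a log2 fold change of -0.12.

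Of 11 IKK and related kinase genes, edgeR, DESeq2 and limma voom called 0, with 1 at an unadjusted p under 0.05 in edgeR. That gene was Chuk, which encodes IKKα, at a log2 fold change of -0.14. Ikbke, a kinase of the interferon branch, had -0.16 and its adaptor Tank had -0.09.

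Among 19 other inhibitors and deubiquitinases, all 3 tools called 0 (DESeq2 gave no adjusted p for 1 of them), and 4 had an unadjusted p under 0.05 in edgeR. Nkiras1, which encodes κB-Ras1, an IκB-binding protein, was at 2.29 ± 0.441 CPM under PBS and 3.28 ± 0.176 CPM under rFSTL1 (SD, n = 4) without overlap. Its log2 fold change was 0.51 (edgeR, Benjamini-Hochberg adjusted p = 0.213). Tnip3, an A20-binding protein, had 0.17 and Rnf11, a partner of A20, had -0.17. Among 13 IκB ligase subunits and nuclear cofactors, all 3 tools called 0, with 3 at an unadjusted p under 0.05 in edgeR. These were Btrc, the β-TrCP subunit that recognises phosphorylated IκB, at 0.21, the deacetylase Sirt1 at -0.16 and the p65 kinase Rps6ka5 at -0.15 on the log2 scale.

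Of these lists, the downstream targets alone held genes called by edgeR. Of 39 listed genes 30 were tested, and 6 rose and 0 fell (edgeR, adjusted p under 0.05), beside 0.326% of all genes called higher. DESeq2, which gave no adjusted p for 6 of the 30, called 8, all higher, beside 2.12% of all genes with one. The limma voom fit with sample quality weights called 9 of 30, beside 4.22% of all genes. Of the 9, 1 was lower, Cd83 (Benjamini-Hochberg adjusted p = 0.0376 in limma voom and 0.115 in edgeR). Both fits added the chemokine gene Cxcl2 and Plau, which encodes urokinase, to the 6 called by edgeR. Cxcl2, Plau and Cd83, a maturation marker of antigen-presenting cells, are named after their values were seen. Over the 30 tested target genes the median log2 fold change was 0.14, with 24 positive and 6 negative. Of all 10748 genes tested, 5587 were positive and 5161 negative. The list was written with earlier results of these data known, so this count is not independent evidence of its direction. The other 9 listed genes did not pass the expression filter, with 9 counts or fewer per library. They were Cxcl1, Il1a, Il1b, Il6, Il12b, Vcam1, Bcl2a1a, Mmp9 and Fas. Cxcl1, Il12b and Vcam1 were at 0 in every library.

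The called target genes include 2 chemokines, 2 immediate early genes, an enzyme and a surface proteoglycan. Ccl3 and Ccl4, inflammatory chemokines, rose from 161 ± 7.03 to 211 ± 14.2 CPM and from 51.9 ± 5.24 to 74.2 ± 8.98 CPM (SD, n = 4). Their log2 fold changes were 0.40 and 0.51 (edgeR, Benjamini-Hochberg adjusted p = 0.00363 and 0.0151). In both genes every rFSTL1 library was above every PBS library.

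Junb, an AP-1 component, rose from 76.7 ± 3.37 to 97.8 ± 6.64 CPM (SD, n = 4), by 0.35 on the log2 scale (edgeR, Benjamini-Hochberg adjusted p = 0.00895). Ier3, an early response gene linked to cell survival, rose from 35.3 ± 6.46 to 54.7 ± 5.98 CPM (SD, n = 4), by 0.63 on the log2 scale (edgeR, Benjamini-Hochberg adjusted p = 0.0186). Nos2, the inducible nitric oxide synthase, had the largest change of these genes, 0.93 (edgeR, Benjamini-Hochberg adjusted p = 0.0299). Sdc4, the proteoglycan syndecan-4, rose from 68.4 ± 3.04 to 81.0 ± 2.42 CPM (SD, n = 4), by 0.24 on the log2 scale (edgeR, Benjamini-Hochberg adjusted p = 0.0424). Its call was the least stable of the 6 and was lost in 9 of 17 alternatives, among them relative log expression size factors, the CPM filter and the replicate block. Ccl3 was called in all 17. All 6 were among the 10 of 30 tested target genes whose rFSTL1 libraries all lay above PBS, beside 4.63% of all genes tested. The 6 were picked by their p-values, so this adds no support. The count of called target genes fell to 2 without PBS replicate 2 (Ccl3 and Ccl4), 3 (Ccl3 and Junb) or 4 (Ccl3 and Ier3) and to 3 without rFSTL1 replicate 3 (Ccl3, Ier3 and Junb).

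**Figure D4:**
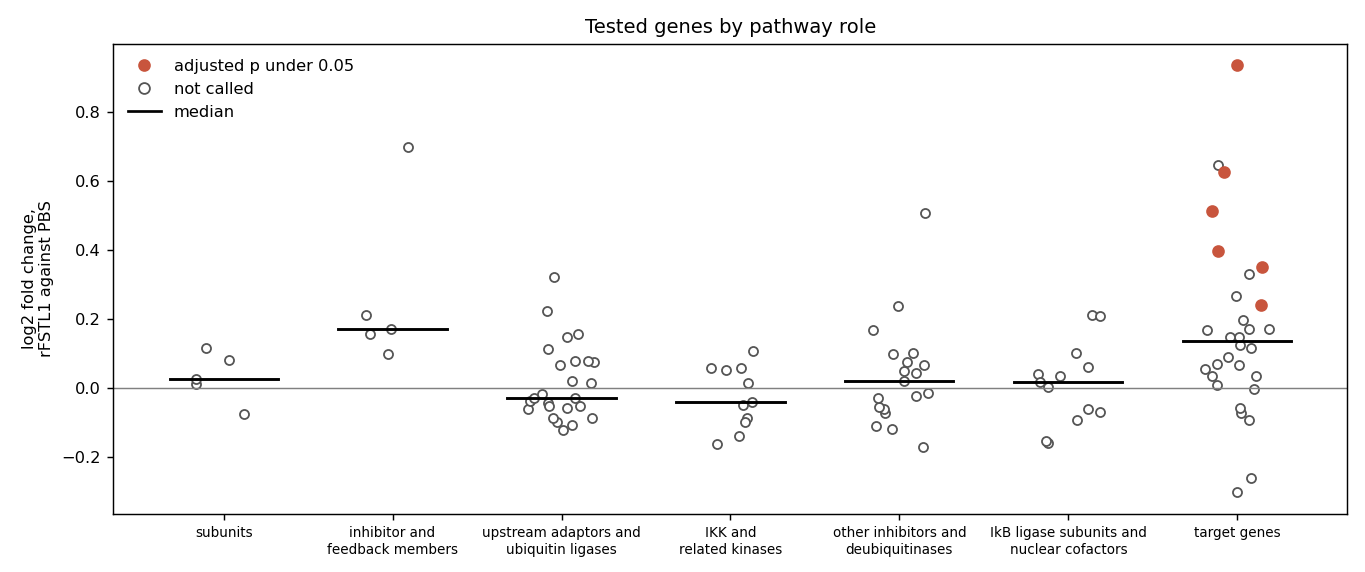
Log2 fold change under rFSTL1 against PBS of every tested gene, arranged by its role in the NF-κB pathway, with 1 point per gene and a bar at each median. Filled points have an edgeR adjusted p under 0.05 and appear in the target gene column alone, where 6 of 30 are filled.

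Nfkbia and Tnfaip3 are classical targets as well as regulators, and their log2 fold changes (0.10 and 0.21) can be set beside the target median of 0.14. The difference between regulators and targets was not tested.

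The genes whose level most resembled that of Rela over the 8 libraries, by Pearson r of log2(CPM + 1), were Sh3pxd2a (0.962), Uck2 (0.961) and Sf3a2 (0.956), and 35 genes had an r over 0.9. For Nfkbia they were Hjurp (0.946), Tmem205 (0.940) and Eif3g (0.939), with 21 genes over 0.9. The points share their libraries and groups, so these values describe likeness of pattern only.

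**Figure D5:**
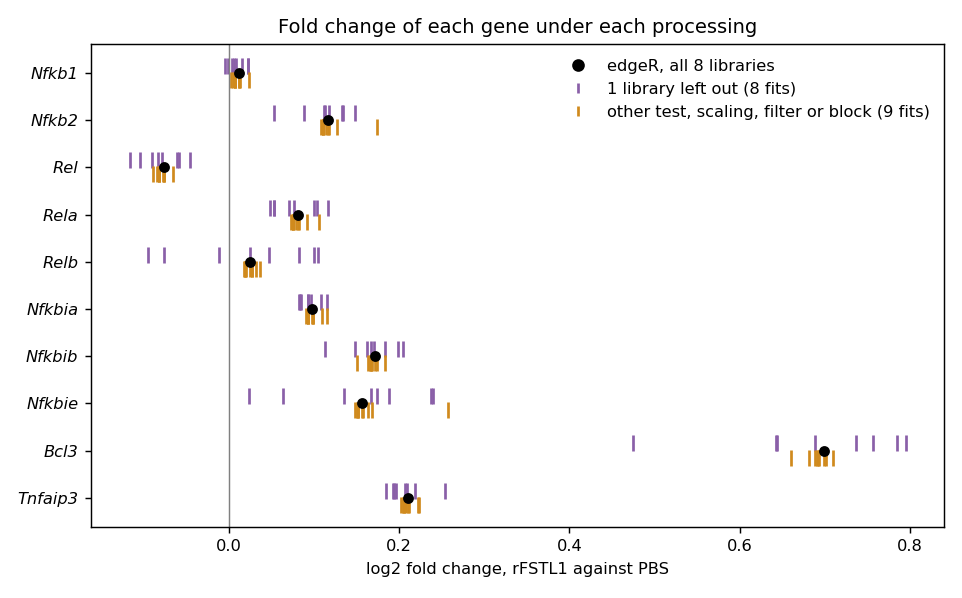
Log2 fold change of each gene in edgeR on all 8 libraries (dots) and in 17 alternatives (ticks), of which 8 leave out 1 library. Nfkb1 and Relb have ticks on both sides of 0, Rel stays below 0, and the remaining genes stay above 0, with Bcl3 ranging from 0.48 to 0.79.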

How the data were processed

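RNA-seq of 8 libraries (4 PBS, 4 rFSTL1) was analysed. The authors deposited expected counts (estimated counts) per gene without normalization. The submitters' notes name HISAT2, Bowtie2 2.2.8, StringTie 1.3.1 and DESeq2, with no role. The build, annotation and counting tool are not given in the sources used here. Of nonzero values, 13.0% were not whole, and values were rounded, where the design had assumed whole counts. Genes passing filterByExpr (minimum count 10) were scaled by TMM and compared by edgeR 4.0.16 (quasi-likelihood, Benjamini-Hochberg, threshold 0.05) in R 4.3.3. Exact two-sided permutation tests used log2(CPM + 1) over 70 assignments. DESeq2 1.42.0, limma 3.58.1 voom with sample quality weights, other scalings and filters, a replicate block and leaving out each library were alternatives. The fit was tested on simulated data. The p-values measure the spread between libraries only. No 2 libraries of a group agreed within sampling noise (chi-square per degree of freedom at least 3.02 under PBS and 4.42 under rFSTL1).

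The members and lists were chosen with earlier results of these data known. Named genes are the 10 members, and in each pathway list the called genes and the 3 with the smallest p. For Rela and Nfkbia the 3 genes most like each were added. Names outside the rule are markers, overlapping genes, and Cxcl2, Plau and Cd83, target genes called by another tool. The 9 target genes that were not tested are named as well.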

Additional observations from a re-analysis of the deposited data

Results flagged for a closer look

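In groups of 4 libraries, a library was picked out where its gap to the nearest other library took up more of the group's range than Dixon's critical value allows. Of 68 groups examined, 5 held such a library, where chance would give about 3.4. Tnfaip3 held 2 of them, among 20 groups of the 10 genes, where chance would give about 1. It was at 13.3 CPM in PBS replicate 2, below 13.9 to 14.0 CPM in the other PBS libraries, and at 14.2 CPM in rFSTL1 replicate 1, below 16.4 to 16.6 CPM in the other rFSTL1 libraries. Tank was at 83.1 CPM in PBS replicate 3 (others 87.3 to 88.1 CPM). Sdc4 was at 84.6 CPM in rFSTL1 replicate 2 (others 79.5 to 80.3 CPM). Tmem205 was at 11.2 CPM in rFSTL1 replicate 4 (others 11.8 to 11.9 CPM).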

How the results depend on the processing

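Over 17 alternatives for each of the 10 genes, 165 of 170 fits kept direction and call, and 0 called a gene. The lowest adjusted p was 0.0782 (Bcl3, limma voom), and DESeq2 gave none for Bcl3 and Nfkbie. The 5 reversals were in leave-one-out fits, in which Nfkb1 ranged from -0.0051 to 0.023 and Relb from -0.094 to 0.11 on the log2 scale. Single reversed values were -0.0051 and -0.0014 for Nfkb1 and -0.094, -0.01 and -0.08 for Relb. The median of the 10 genes was 0.058 to 0.12 without 1 library, lowest without rFSTL1 replicate 3. The cause was not tested.

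Over all genes, 37 were called (35 higher, 2 lower). DESeq2 called 197 (136 higher, 61 lower), and limma voom with sample quality weights called 454 (244 higher, 210 lower). Upper-quartile scaling gave 56 (54 higher, 2 lower), all genes with a count gave 127 (101 higher, 26 lower) and a threshold of 0.1 gave 133. Leaving out 1 library gave 11 (without PBS replicate 2) to 99 (without rFSTL1 replicate 1). Of the pathway genes 6 were called, 10 (9 higher, 1 lower) by limma voom, and 2 to 7 without 1 library. Bcl3 and Tnfaip3 did not overlap under any of the 4 scalings, and Nfkbia joined them under upper-quartile scaling and library totals, which was examined after seeing the data.

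The replicate numbers did not pair the libraries (correlations of same-numbered deviations -0.090, 0.085, -0.013 and 0.001). With the replicate block 41 genes were called, 0 of the 10 members and 5 pathway genes (Sdc4 was lost). Depth was lowest for Bcl3 among the 10 genes, at 22 to 66 counts per library.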
